A study of Mus musculus with 9 samples.

Results

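Circulating LSK cells were compared with irradiated LSK cells, using 6 of the 9 libraries of the series and 13771 of its 14461 genes. LSK cells hold the blood stem and early progenitor cells of mouse bone marrow and are sorted as lineage-negative cells with Sca-1, made by Ly6a, and c-Kit, made by Kit, on their surface. The comparison was defined by the source names of the libraries: 3 libraries were labelled circulating and 3 irradiated, and 3 endogenous libraries served as a reference and shared the estimate of spread. A gene was kept if its normalised value was at least 1 in at least 3 of the 9 libraries. All differences below are circulating minus irradiated on the log2(value + 1) scale, so positive values mean higher in circulating cells. Values of a gene are given for replicates 1 to 3, with the circulating libraries first and the irradiated ones after "against".

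Per the labels, every library came from LSK cells sorted from the bone marrow of specific-pathogen-free parabiotic mice, pairs of animals joined by surgery so that they exchange blood. The design text describes cells that had travelled through the blood into the marrow of an irradiated partner. Sorting used lineage, Sca-1, c-Kit and the dead-cell dye DAPI, with a stated purity above 95%. The strain label was C57BL/6 in the circulating and irradiated groups, while the endogenous group was labelled B6SJL CD45.1. CD45.1 is an allele of Ptprc, the gene of the pan-leukocyte protein CD45, by which the cells of joined partners can be told apart. From which partner the circulating cells originated, the radiation dose, the time after irradiation, and the animals' age and sex are not given in these sources. The titles give same-numbered circulating and irradiated libraries a shared code that the labels do not explain. A further title code, LSK1 in the circulating and endogenous libraries and LSK2 in the irradiated ones, is not explained either. The labels do not state whether libraries of 1 group stem from different animals. P-values therefore reflect how much these samples vary, which may be technical variation alone.

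Most blood stem cells are held in bone marrow niches. The chemokine CXCL12, acting on its receptor CXCR4, is a main retention signal, and a small number of stem and progenitor cells leave the marrow, travel in blood and settle in marrow elsewhere. Ionising radiation kills or impairs stem cells, and the survivors and any incoming cells then rebuild the progenitor pool, with increased division and myeloid output.

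The libraries had recovered depths of 14065855 to 27012345 estimated counts, and circulating replicate 2 was the shallowest and had 560 genes at a count of 0, against 15 to 206 in the others. The circulating libraries varied most: the median over genes of the standard deviation on the log2 scale was 0.382 for the circulating, 0.213 for the irradiated and 0.262 for the endogenous group. In a principal component analysis of the 6 libraries, circulating replicate 2 stood apart on the first component (38.3% of the variance) and circulating replicate 3 on the second (25.4%). Among the circulating libraries, replicate 1 lay nearest to the irradiated ones. The markers of the gate were present in all 6 libraries. Ly6a stood at 138, 146 and 127 in circulating and 202, 159 and 163 in irradiated replicates 1 to 3, and Kit at 327, 401 and 409.9 in circulating and 576, 562 and 622 in irradiated cells.

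Of the 13771 genes tested with limma, 4 passed an adjusted p of 0.05 (0.029%): Ctse, Dynlt1b and Cxcr4 were higher (0.0218% called higher) and Adgrg1 was lower in circulating cells (0.00726% called lower). At an unadjusted p under 0.05 there were 1573 genes (11.4%), 677 of them higher (4.92%) and 896 lower (6.51%). The 3 circulating values lay above all 3 irradiated values in 1028 genes (7.46%) and below all of them in 1275 genes (9.26%). Over all tested genes the median difference was -0.02. Without circulating replicate 1, 137 genes were called (0.995%), 70 higher (0.508%) and 67 lower (0.487%). That replicate lay nearest to the irradiated libraries, so calls made without it, here and below, are described and not taken as support. All such calls stand beside these shares over all genes. With the libraries rescaled to the same sum, 3 genes were called higher and 8 lower, in place of 3 and 1. The same table gave 1189 called genes for circulating against endogenous cells (8.63%) and 83 for irradiated against endogenous cells (0.603%). These comparisons share libraries with the one described here.

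Ctse, the gene of cathepsin E, an aspartic protease of the endosomal pathway, showed the largest difference among the called genes. Its normalised values were 648, 508 and 713 in circulating replicates 1 to 3 and 45.4, 63.4 and 75.7 in irradiated replicates 1 to 3. Each circulating library was thus far above each irradiated library, and the endogenous libraries, at 711, 831 and 735, lay in the range of the circulating ones or above it. The mean was 623 ± 105 in circulating and 61.5 ± 15.2 in irradiated cells (SD, n = 3), a 10.1-fold ratio. The difference was 3.34 (SE 0.18, 95% confidence interval 2.93 to 3.74, limma adjusted p = 7.82e-06). Ctse (ENSMUSG00000004552) lies on chromosome 1 at chr1:131638306-131675505 (GRCm38).

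Cxcr4, the receptor that holds stem cells in the marrow through CXCL12, rose in the same direction at a lower level. Its values were 65.8, 57.8 and 64.8 in circulating and 9.86, 14.5 and 8.54 in irradiated replicates 1 to 3. The groups did not overlap: the lowest circulating library was several times the highest irradiated one. The endogenous libraries stood at 47, 44.2 and 50.8, close below the circulating ones. The mean was 62.8 ± 4.32 against 11 ± 3.11 (SD, n = 3), and the difference was 2.44 (SE 0.22, 95% confidence interval 1.96 to 2.93, limma adjusted p = 0.000961). In a limma fit of the 6 libraries with a term for the replicate number, Cxcr4 was not called (adjusted p = 0.106). Cxcr4 (ENSMUSG00000045382) lies at chr1:128588199-128592293. These are transcript levels in sorted cells, and surface protein was not measured.

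Dynlt1b encodes a Tctex-type light chain of the dynein motor and belongs to a cluster of near-identical copies on chromosome 17. Dynlt1b stood at 239, 190.1 and 164 in circulating and 22.3, 19.9 and 19.9 in irradiated replicates 1 to 3, with no overlap, and at 179, 227 and 194 in endogenous cells. The mean was 198 ± 38.2 against 20.7 ± 1.39 (SD, n = 3). The difference was 3.18 (SE 0.17, 95% confidence interval 2.81 to 3.55, limma adjusted p = 7.82e-06). The gene (ENSMUSG00000096255) spans chr17:6430112-6436296. The first 90 coding bases of Dynlt1b and of Dynlt1c are shown because they hold the only coding position at which the copies differ, marked by a capital. Both come from the GENCODE M21 transcripts on GRCm38, where these 90 bases span chr17:6430212-6435028 and chr17:6601810-6606632, each on the plus strand. They are spliced transcript bases, so the genomic spans are longer than the stretches shown.
Dynlt1b: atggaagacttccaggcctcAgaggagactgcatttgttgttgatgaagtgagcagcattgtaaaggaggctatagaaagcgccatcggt
Dynlt1c: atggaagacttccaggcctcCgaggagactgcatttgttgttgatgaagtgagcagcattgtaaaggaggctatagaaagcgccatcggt
The coding sequence of Dynlt1b differed from those of Dynlt1a, Dynlt1c and Dynlt1f by A21C, counted from 1 at the A of the start codon, in 342 bases (99.71% identity). Dynlt1a, Dynlt1c and Dynlt1f were identical to each other over the 342 coding bases.

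How reads were divided among these copies is therefore uncertain, and the other copies were read beside Dynlt1b. Dynlt1c stood at 124, 91 and 80.1 in circulating and 57.3, 46.4 and 41.3 in irradiated cells, also without overlap, with a difference of 1.00 that missed the threshold (adjusted p = 0.104). Dynlt1a had 47.9, 67 and 66.2 against 75.2, 50.4 and 55.5, and Dynlt1f had 139.8, 170.3 and 159 against 155, 155 and 136, and in both the groups overlapped. Summed over the 4 copies, the values were 551, 518 and 469 in circulating and 310.2, 271 and 252 in irradiated cells, a ratio of means of 1.84. Without Dynlt1b, the sum over the 3 other copies had a ratio of 1.22. The sum over all copies was thus higher in every circulating library than in every irradiated one.

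Adgrg1 (GPR56), an adhesion G protein-coupled receptor widely used as a stem cell marker, fell. Its values were 646, 711 and 524 in circulating and 1187, 1215 and 1241 in irradiated replicates 1 to 3. The irradiated libraries were tightly grouped and all above the circulating ones, and the endogenous libraries were higher still, at 1613, 1532 and 1282. The mean was 627 ± 94.8 against 1214 ± 26.9 (SD, n = 3), 1.94-fold higher in irradiated cells. The difference was -0.96 (SE 0.13, 95% confidence interval -1.24 to -0.69, limma adjusted p = 0.0298). Leaving out irradiated replicate 1, 2 or 3 gave adjusted p of 0.158, 0.142 and 0.256, and leaving out endogenous replicate 1 or 2 gave 0.0563 and 0.0615, with the difference between -0.98 and -0.95. It was 0.0894 in a fit of the 6 libraries alone, 0.147 with a term for the replicate number added there, and 0.051 without robust moderation. Adgrg1 (ENSMUSG00000031785) lies at chr8:94974751-95014217.

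**Figure D1:**
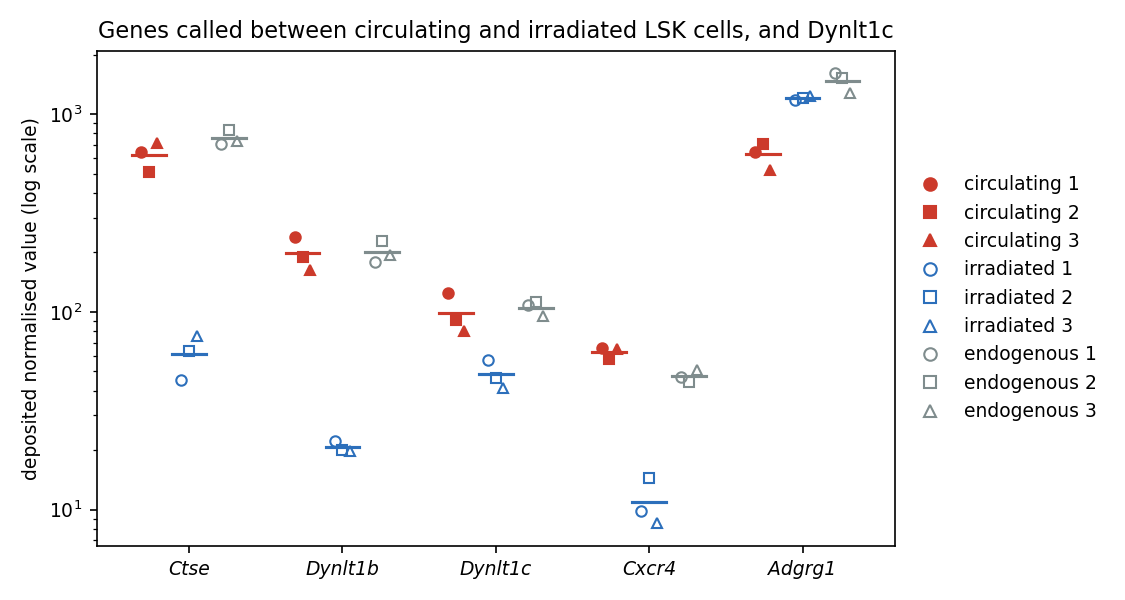
Deposited normalised values (y axis, log scale) of the 4 called genes and Dynlt1c (x axis) in each circulating (red, filled), irradiated (blue, open) and endogenous (grey, open) library, with a horizontal bar at each group mean. Ctse, Dynlt1b and Cxcr4 stood higher in all 3 circulating than in all 3 irradiated libraries, near the endogenous level, and Adgrg1 stood lower.

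Ctse, Cxcr4 and Dynlt1b had their low values in irradiated cells, with endogenous values near the circulating ones. Against endogenous cells, circulating cells differed by -0.30 in Ctse (adjusted p = 0.335), 0.40 in Cxcr4 (0.274) and -0.03 in Dynlt1b (0.936). Irradiated cells differed from endogenous cells by -3.63, -2.04 and -3.21 (adjusted p = 4.3e-06, 0.00434 and 4.3e-06). Adgrg1 was placed otherwise, with circulating cells -1.24 from endogenous cells (adjusted p = 0.00142) and irradiated cells -0.27 from them (0.34). The comparisons share libraries, so these values are a description of the same levels.

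Ctse and Cxcr4 lie near Ptprc, starting 6.42 Mb and 9.47 Mb below the start of Ptprc on chromosome 1. This is the chromosomal region that congenic CD45.1 strains carry from the SJL strain. Within 20 Mb of Ptprc, 208 genes were tested and 2 were called, both higher in circulating cells, where 0.0218% of all genes were called higher. At an unadjusted limma p under 0.05 this span had 19 higher and 17 lower genes, beside shares over all genes of 4.92% and 6.51%. There the groups did not overlap in 18 genes with higher values (8.65%) and in 14 with lower values (6.73%), beside shares over all genes of 7.46% and 9.26%. On the rest of chromosome 1, 726 genes were tested with limma and none was called, with 41 higher and 31 lower genes at an unadjusted p under 0.05. There the groups did not overlap in 56 higher (7.71%) and 50 lower genes (6.89%). Ptprc itself stood at 651, 646 and 450.1 in circulating and 510.0, 499 and 449.7 in irradiated cells, with overlap. The labels give both groups the same strain. The titles, by contrast, give the circulating libraries the code LSK1 of the endogenous CD45.1 ones and the irradiated libraries LSK2. What that code stands for is not stated. If the circulating cells nevertheless carried the CD45.1 region, strain and group cannot be told apart for genes in it. Dynlt1b lies on chromosome 17, and whether strain has a part in its values was not tested.

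Other genes near Ptprc had large differences that missed the threshold. Fcmr, the receptor for the constant part of IgM, stood at 5.36, 38.3 and 17 in circulating and 0.606, 0.712 and 0.0615 in irradiated cells, a difference of 3.53 (adjusted p = 0.0686). Ppfia4, a liprin scaffold protein, stood at 0.113, 0.0376 and 1.73 against 11.4, 7.28 and 5.85, a difference of -2.60 (adjusted p = 0.0745). Chil1, a chitinase-like protein, had 23.4, 24.4 and 28.9 against 10.8, 6.72 and 1.91, a difference of 2.04 (adjusted p = 0.202). None of these groups overlapped, and the endogenous values of Fcmr were at most 0.832, unlike its circulating values. These 3 genes were picked after their values were seen.

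**Figure D2:**
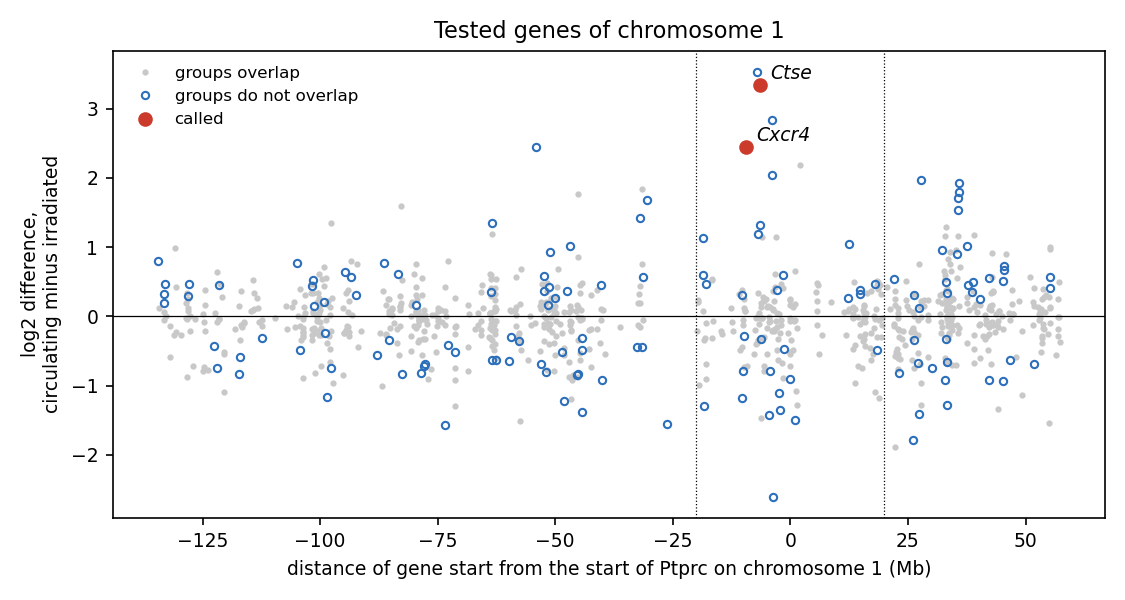
Log2 difference, circulating minus irradiated (y axis), of each tested gene of chromosome 1 against its distance in Mb from the start of Ptprc (x axis). Red points are called genes, blue rings genes whose groups do not overlap, grey points the rest, and the dotted lines enclose the window of 20 Mb, in which Ctse and Cxcr4 are the called genes.

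Among the genes ranked next by unadjusted p, the lower ones came closest to the threshold. Only genes whose groups did not overlap entered this ranking, so the lack of overlap in its genes, here and below, was set by the selection. Cep85, a centrosomal protein, stood at 80.7, 97.5 and 98.5 in circulating and 217, 210.4 and 232 in irradiated cells, and the endogenous values of 59.1, 63.2 and 93.6 were nearer to the circulating ones. Its difference was -1.25 (adjusted p = 0.0548). Smarcd1, a subunit of the BAF chromatin remodelling complex, had 14, 12.8 and 12.1 against 40.1, 44.3 and 44.2, a difference of -1.65 (adjusted p = 0.0548). The groups of both genes were far apart relative to their spread, although neither passed. Prmt1, the main arginine methyltransferase of the cell, had 84.8, 108 and 109 against 184, 210.1 and 204 (difference -0.99, adjusted p = 0.0548). Col4a1, a collagen chain of basement membranes, had 6.31, 5.82 and 6.87 against 21, 21 and 22.1 (difference -1.61, adjusted p = 0.0568). Without circulating replicate 1 these 4 were called, with adjusted p of 0.0352, 0.0272, 0.0306 and 0.03 and differences of -1.15, -1.71, -0.87 and -1.61. In that fit 0.487% of all genes were called lower.

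Fn3krp, a kinase that repairs sugar adducts on proteins, stood at 2.53, 8.43 and 8.54 in circulating and 42.3, 35 and 40.9 in irradiated cells, with endogenous values of 0.642, 0.374 and 0.535 and a difference of -2.56 (adjusted p = 0.0686). The irradiated level was thus the high one of the 3 groups. Csgalnact1, which starts chondroitin sulphate chains, was at 33.7, 24.4 and 25.9 against 82.9, 77.1 and 85.8 (adjusted p = 0.0591). Slc16a9, a monocarboxylate transporter, was at 1.45, 0.0376 and 1.73 against 9.18, 8.52 and 6.75 (adjusted p = 0.0968). Serpina3g, Pglyrp2, Tmem106c, Cbfa2t3, Lmo2, Selp and Ubl7 were likewise lower without overlap, with differences from -1.78 in Selp to -0.75 in Lmo2 and adjusted p from 0.0686 to 0.0968.

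The higher genes in the same ranking were led by Abcd2, a peroxisomal transporter of very long-chain fatty acids. Abcd2 stood at 66.5, 84.8 and 87.3 in circulating and 20.4, 25.8 and 32.8 in irradiated cells, with endogenous values of 17.5, 32.7 and 26.1 and a difference of 1.57 (adjusted p = 0.0728). Each circulating library was thus more than every library of both other groups. Cd36, a fatty acid scavenger receptor, stood at 23.7, 66.1 and 19.5 against 5.47, 3.92 and 5.02 (difference 2.49, adjusted p = 0.0968). Both genes handle fatty acids, but neither passed. Ccar1, a regulator of division and apoptosis, had a smaller and more even difference, at 384, 362 and 313 against 240.3, 227 and 219.9 (difference 0.62, adjusted p = 0.0968). Cd247, the zeta chain of the T cell receptor complex, was at 13.1, 19 and 10.4 against 3.09, 3.41 and 1.99 (adjusted p = 0.0968). Pid1, Sppl2a, Epha7, Bank1 and Os9 were also higher without overlap, with adjusted p from 0.105 to 0.156. Abcd2 (adjusted p = 0.0375, difference 1.70) and Cd36 (0.0423, 2.69) were called without circulating replicate 1.

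Genes of stem cell identity were, as a group, lower in circulating cells, although only Adgrg1 passed. Of 17 tested transcription regulators of stem cells, all 17 had a negative difference, with a median of -0.50 against -0.02 over all genes. In 7 of the 17 (41.2%) the groups did not overlap, against 9.26% of all genes, and none was called in either direction. At an unadjusted p under 0.05 there were 8 lower members and no higher ones. The medians by circulating replicate were -0.44, -0.26 and -0.72 relative to the irradiated mean, so all 3 libraries were on the same side.

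Lmo2, a bridging factor required for blood formation, stood at 371, 342 and 331 in circulating and 508, 652 and 608 in irradiated replicates 1 to 3 (difference -0.75, adjusted p = 0.0968). Hlf, a factor largely restricted to stem cells, stood at 77.6, 50.9 and 41 against 97.9, 127 and 105 (difference -0.99, 95% confidence interval -1.45 to -0.53, adjusted p = 0.146), with 209, 186 and 190.0 in endogenous cells. For both, every circulating library was below every irradiated library, and for Hlf every irradiated library was below every endogenous one. Mecom (EVI1), needed for stem cell maintenance, was at 69.6, 22 and 71.1 against 86, 80.3 and 84.7, and the low value of circulating replicate 2 made most of its difference of -0.79 (adjusted p = 0.43). Gata2, a zinc finger factor of stem and mast cells, was at 42.1, 125 and 41.4 against 99.9, 101 and 116, where circulating replicate 2 was above the irradiated range and the other circulating replicates far below it. Without that library Gata2 was called (difference -1.31, adjusted p = 0.0286), 1 of 7 genes called then (0.0508%), 4 of them lower (0.029%). Without circulating replicate 1, Hlf (difference -1.24, adjusted p = 0.0266) and Lmo2 (-0.80, 0.0429) were called. Gata3, Mycn and Zfp467 were lower without overlap as well, by -0.89 in Mycn to -0.45 in Zfp467. Hoxa9, Erg, Hmga2 and Runx1 were near 0, between -0.16 in Runx1 and -0.04 in Erg.

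Of 20 tested surface and niche genes of stem cells, 18 had a negative difference, with a median of -0.50. In 7 of the 20 (35%) the circulating values lay below all irradiated ones, against 9.26% of all genes. Procr (EPCR), a marker of the most primitive stem cells, stood at 30.1, 19.4 and 19.7 against 40.3, 36.9 and 30.2 (adjusted p = 0.374), and the values of circulating replicate 1 and irradiated replicate 3 were almost equal. Tek, the angiopoietin receptor TIE2, was at 20.3, 14 and 4.78 against 25, 24.1 and 21.3 (adjusted p = 0.403). Selp, the gene of P-selectin, was at 39.4, 60.5 and 21 against 119, 123 and 147, and irradiated cells were here far above the endogenous values of 17, 24.6 and 28.4. Selp missed the threshold (adjusted p = 0.0968) and was called without circulating replicate 2 (difference -2.13, adjusted p = 0.0286). Slamf1 (CD150), Vwf and Sult1a1 varied widely among the circulating libraries, and their groups overlapped. Selp and Vwf are also in the megakaryocyte list described further on, and Ndn in the list of imprinted genes. The summed value of the 20 surface genes was 1448 to 2039 in circulating, 2565 to 2723 in irradiated and 3007 to 3458 in endogenous libraries.

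**Figure D3:**
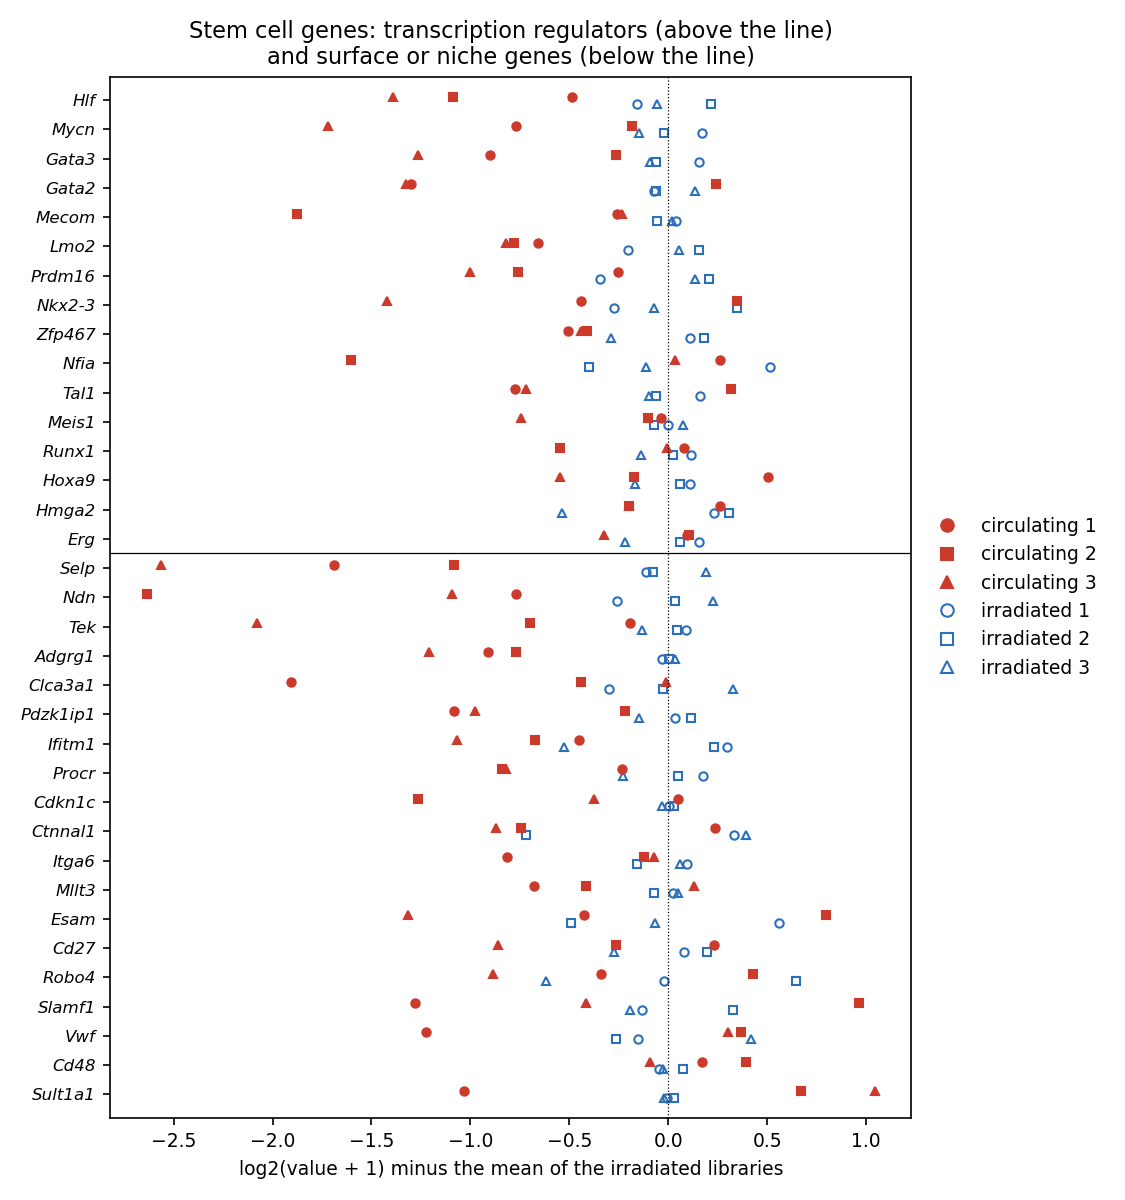
Log2(value + 1) minus the mean of the irradiated libraries (x axis) for transcription regulators (above the line) and surface or niche genes (below it) in each circulating (red, filled) and irradiated (blue, open) library. Most circulating points lie left of 0, and the spread between circulating libraries is wide in several genes such as Gata2, Mecom and Slamf1.

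The markers used to define LSK cells and their subsets had a median of -0.09 over 11 genes. Kit was lower in all circulating than in all irradiated libraries, and its difference was -0.63 (95% confidence interval -0.93 to -0.34, adjusted p = 0.145). Ly6a was lower without overlap too, by -0.34 (adjusted p = 0.381). Both genes encode proteins of the sorting gate, so their transcript differences exist within cells gated for those proteins. Cd34 stood at 1384, 1024 and 735 against 1251, 1324 and 1147 (adjusted p = 0.572), and Flt3, the receptor that marks multipotent progenitors, at 766, 377 and 342 against 416, 469 and 325 (adjusted p = 0.791), with overlap in both. Circulating replicate 1 had the highest values of Cd34 and Flt3 among the circulating libraries, and replicate 3 the lowest. In these bulk libraries, fewer cells of a type and less RNA per cell cannot be told apart.

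Genes of early myeloid progenitors, mainly the granule proteases made by granulocyte-monocyte progenitors, were higher in circulating replicates 2 and 3 but not in replicate 1. Of 19 tested genes, 17 had a positive difference, with a median of 0.87, and none was called. At an unadjusted p under 0.05 there were 10 higher members and no lower ones. The groups did not overlap in 2 genes (10.5%, against 7.46% of all genes). The medians by circulating replicate relative to the irradiated mean were 0.05, 1.00 and 1.66.

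Mpo, myeloperoxidase, stood at 9410.1, 17263 and 28138 in circulating and 8473, 5365 and 11941 in irradiated replicates 1 to 3, and Elane, neutrophil elastase, at 1538, 3664 and 5099.6 against 1836, 1106 and 2118. In both genes circulating replicate 1 lay within the irradiated range while replicates 2 and 3 lay above it. Ctsg, cathepsin G, was at 918, 1546 and 2667 against 778, 516 and 863 (difference 1.15, adjusted p = 0.26) without overlap. Cst7, cystatin F, was at 151, 282 and 347 against 141, 132 and 146 (difference 0.81, adjusted p = 0.308). Anxa3, an annexin of myeloid cells, was at 122, 272 and 392 against 124, 83.1 and 128, and Fcgr3, an Fc receptor of granulocyte-monocyte progenitors, at 105, 256 and 352 against 92, 56.3 and 123. Without circulating replicate 1 the median of the list was 1.31, 15 of 19 genes did not overlap (16.4% of all genes then) and 4 were called (0.508% of all genes). Among them were Ctsg (difference 1.53, adjusted p = 0.0375), Anxa3 (1.57, 0.0272) and Cst7 (1.16, 0.0272). The summed values of the list were 16840 to 48050 in circulating, 11540 to 21360 in irradiated and 4145 to 5278 in endogenous libraries, so the circulating and irradiated ranges overlapped and both lay above the endogenous one.

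The 7 myeloid transcription factors had a median of 0.32 and the 10 myeloid cytokine receptors one of 0.15. None was called in either list, and at an unadjusted p under 0.05 there were 1 higher and 1 lower factors and 2 lower receptors. Spi1 (PU.1), the main myeloid regulator, was 0.32 (adjusted p = 0.503), and Irf8, the regulator of monocyte and dendritic fate, 0.61 (adjusted p = 0.588). Id2, an inhibitor of basic helix-loop-helix factors, was at 50.5, 354 and 102 in circulating and 55.5, 50.4 and 24.3 in irradiated cells, and 1 circulating library carried most of its difference of 1.56 (adjusted p = 0.349). Among the receptors, Il5ra (-1.10) and Il3ra (-0.70) were at low levels in both groups.

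Receptors that guide migration were higher on balance in circulating cells. Of 14 tested chemokine and sphingosine-1-phosphate receptors, 12 had a positive difference, with a median of 0.70. The 3 circulating replicates gave similar medians of 0.59, 0.71 and 0.54. In 5 of 14 (35.7%, against 7.46%) the groups did not overlap: Cxcr4, Cxcr3, Ccr2, Ccr7 and Ccr1. Cxcr4 was the called member. Cxcr3, the receptor for interferon-induced chemokines, stood at 13.6, 50.4 and 21.4 in circulating and 3.44, 3.34 and 3.83 in irradiated cells (difference 2.50, adjusted p = 0.0968). Ccr2, through which inflammatory chemokines draw monocytes and progenitors, stood at 93.2, 344 and 117 against 54.6, 41.1 and 50.3 (difference 1.66, adjusted p = 0.181). The endogenous values of Cxcr3, 2.63, 6.06 and 4.66, and of Ccr2, 33, 22.5 and 26.6, were also below all circulating values. Ccr7, a lymph node homing receptor, was at 16.1, 13.4 and 15.3 against 7.03, 8.72 and 7.5 (adjusted p = 0.322) and close to its endogenous values of 17.4, 11.6 and 19.

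Cxcr2, the receptor for CXCL1 and related chemokines, stood at 19.1, 29.5 and 11.8 in circulating and 12.8, 12.6 and 10.7 in irradiated cells, and its groups overlapped. Its difference was 0.62 (95% confidence interval -0.11 to 1.34, adjusted p = 0.504). The sphingosine-1-phosphate receptor S1pr1, an exit receptor of many blood cells, was 0.11 (adjusted p = 0.935) and overlapped too. Cxcr3 (difference 2.91, adjusted p = 0.0272) and Ccr2 (2.03, 0.0424) were called when circulating replicate 1 was left out. Of all genes, 0.508% were called higher then. Cxcr3 and Ccr2 are also made by lymphoid, NK and monocytic cells, and circulating replicate 2 had the highest value of both, as it did of Cd3g and Klrk1. The summed monocyte markers were 1146 to 2351 in circulating and 1105 to 1522 in irradiated libraries. The part of such cells in these values was not tested.

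Adhesion and homing genes showed no common direction, with a median of 0.06 over 24 genes, 14 positive and 10 negative. Itgb2, the beta chain of the leukocyte integrins, stood at 93.5, 230.4 and 162 against 92.3, 61 and 88.6 (difference 0.93, adjusted p = 0.295) and was called without circulating replicate 1 (1.27, 0.037). Itgb3, the beta chain of the platelet and vitronectin integrins, stood at 1.38, 4.92 and 9.09 against 17.7, 11.3 and 15.3 (difference -1.57, adjusted p = 0.308), and Itga5, the fibronectin receptor chain, at -1.06 (adjusted p = 0.323). Itga4, the VLA-4 chain that binds stem cells to VCAM1, was at 142, 137 and 169 against 149, 142 and 132 and differed by 0.08 (adjusted p = 0.872).

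Markers of mature lymphoid and antigen-presenting cells were higher in the circulating than in the irradiated group, and circulating replicate 2 carried much of this. The 11 tested T cell markers had a median of 1.35, but the medians by replicate were 0.12, 2.92 and 0.03, and without circulating replicate 2 the median was 0.02. Cd3g, a chain of the T cell receptor complex, stood at 1.11, 31 and 5.29 in circulating and 1.68, 0.383 and 0.348 in irradiated cells, and Trac, the constant part of the receptor alpha chain, at 0.655, 30.1 and 5.64 against 1.5, 0.566 and 0.102. Circulating replicate 2 was thus far above the rest, replicate 3 intermediate, and replicate 1 within the irradiated range. The summed T cell markers were 79.2 to 337 in circulating, 62.4 to 99.0 in irradiated and 136 to 143 in endogenous libraries. Cd3e was at 0 in 1 irradiated library. The sorting gate excludes cells with lineage markers.

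Of 11 NK cell markers, 4 were in the table and tested. Klrk1 (NKG2D) stood at 8.7, 70.3 and 18.3 against 4.92, 3.3 and 4.2 (difference 2.22, adjusted p = 0.246) without overlap, and Gzmb, granzyme B, at 2.68, 27.3 and 68.7 against 5.91, 6.51 and 8.33. The summed NK markers were 15.2 to 117 in circulating and 13.7 to 18.5 in irradiated libraries. Without circulating replicate 1, Klrk1 (difference 2.86, adjusted p = 0.0387) and Gzmb (2.50, 0.0422) were called, where 0.508% of all genes were called higher. Without circulating replicate 2 neither was called, and the median of the list was 0.34 in place of 0.99.

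B lineage genes had no common direction. Ms4a1 (CD20), a surface protein of B cells, stood at 3.48, 31.9 and 23.7 against 2.84, 0.583 and 0.575 (difference 2.86, adjusted p = 0.246). The groups did not overlap, and circulating replicates 2 and 3 were the high ones. Genes of early lymphoid commitment overlapped between the groups. Dntt, terminal transferase, was at 1484, 545 and 671 against 890.4, 978 and 369, and Il7r, the interleukin-7 receptor, at 15.4, 0.113 and 20.9 against 14, 14.8 and 6.66. Tcf3 (E2A), a factor of B lineage entry, was lower without overlap, at 36.1, 26 and 45.9 against 54.4, 74.5 and 69.2 (difference -0.88, adjusted p = 0.323). Over the 20 tested genes the median was 0.20, with 3 higher and 1 lower without overlap, beside shares over all genes of 7.46% and 9.26%. That median was -0.07 when irradiated replicate 3 was left out and 0.61 when circulating replicate 1 was. Leaving out circulating replicate 1, Ms4a1 was called (difference 3.75, adjusted p = 0.0349). The summed B lineage markers were 3108 to 8289 in circulating and 3179 to 25080 in irradiated libraries, with Ighm at 22640.0, 1657 and 3363 in irradiated replicates 1 to 3. Igha, the constant part of IgA made by plasma cells, stood at 1187, 4872 and 2.41 in circulating and 0.741, 1.19 and 0.635 in irradiated replicates 1 to 3 (adjusted p = 0.46), with a very wide spread among the circulating libraries.

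The median of the 10 MHC class II genes was 1.05, and it was 0.27, 1.87 and 0.89 by circulating replicate. H2-Ab1, a class II beta chain, stood at 407, 1754 and 584 in circulating and 356, 359 and 198 in irradiated cells (difference 1.34, adjusted p = 0.353). The groups did not overlap, but circulating replicate 2 was well above the others, and without it the median of the list was 0.56. H2-DMb2, a peptide-loading chaperone chain, was at 18, 62.1 and 24.9 against 10.7, 15.4 and 7.29 (adjusted p = 0.322). Among 9 dendritic cell genes (median 1.10), Xcr1, the receptor of cross-presenting dendritic cells, was at 24.1, 118 and 30.8 against 13.3, 11.1 and 6.62 (difference 2.06, adjusted p = 0.244). Its endogenous values were 5.08, 3.82 and 8.68, below all circulating ones. The summed dendritic cell markers were 612 to 1188 in circulating, 568 to 787 in irradiated and 934 to 1246 in endogenous libraries. Unlike Xcr1, that sum was thus not lower in endogenous than in circulating cells. Without circulating replicate 2 the median of the dendritic list was 0.41.

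**Figure D4:**
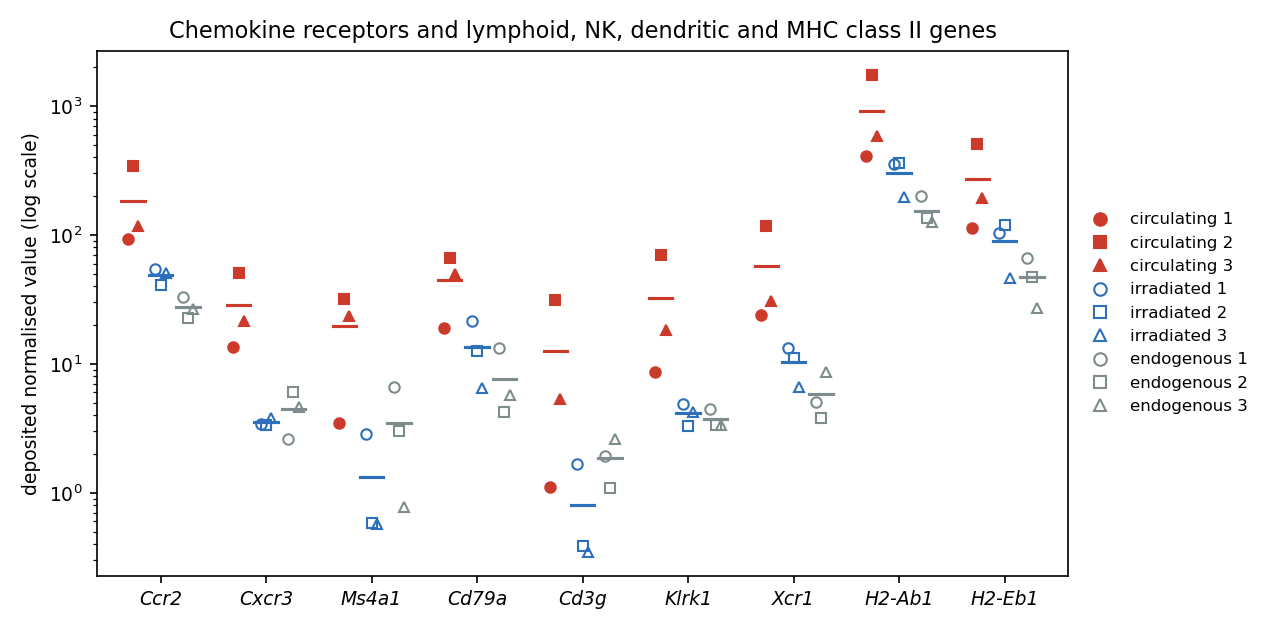
Deposited normalised values (y axis, log scale) of chemokine receptors and of B cell, T cell, NK cell, dendritic cell and MHC class II genes (x axis) in each library, with a bar at each group mean. Circulating replicate 2 (filled square) is the highest point of each gene plotted, and none of these genes is called with all libraries.

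Of 12 monocyte and macrophage genes (median 0.60), Adgre1 (F4/80) stood at 9.29, 16.3 and 7.39 against 0.741, 4.34 and 3.22 (difference 1.75, adjusted p = 0.303) without overlap. Vcam1, an adhesion molecule of macrophages and stroma, stood at 32.5, 132 and 79.4 against 31.8, 31.1 and 39.2 and was called without circulating replicate 1 (difference 1.57, adjusted p = 0.0272). The 14 neutrophil genes had a median of -0.43, with 8 negative and 6 positive. Retnlg, a resistin-like protein of neutrophils, was at 26.1, 0.113 and 0.0849 in circulating and 37.9, 28.7 and 17.2 in irradiated cells, so that it was near 0 in 2 of 3 circulating libraries, and Mmp8, neutrophil collagenase, was at 19.6, 12.4 and 3.14 against 48.4, 23.7 and 30.9 (adjusted p = 0.295). Retnlg was called without circulating replicate 1 (difference -4.65, adjusted p = 0.00282). The summed value of the 14 neutrophil genes was 1415 to 2295 in circulating and 999.7 to 2311 in irradiated libraries, so the groups overlapped in that sum.

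Of 15 megakaryocyte and platelet genes, 13 had a negative difference, and their median was -0.53. Gp1ba, a chain of the platelet receptor for von Willebrand factor, stood at 4.36, 2.74 and 3.6 against 14.9, 10.2 and 9.9 (difference -1.47, adjusted p = 0.159) without overlap. Pf4, platelet factor 4, stood at 4.5, 73.5 and 44.8 against 45.7, 76.1 and 63.5, where circulating replicate 1 was far below every other of the 6 libraries. The medians by circulating replicate, -1.11, 0.21 and -0.42, differed in sign. The median of 9 mast cell and basophil genes was 1.20, and by replicate it was -0.91, 1.62 and 2.14. Hdc, histidine decarboxylase, stood at 47.8, 96.8 and 175 against 34, 25.2 and 74.2 (adjusted p = 0.373). Erythroid genes had a median of 0.33 over 17 genes, and circulating replicate 3 stood apart, with 0.03, 0.19 and 1.64 by replicate. None of the genes of these 3 lists was called, and at an unadjusted p under 0.05 there were 0 higher and 3 lower megakaryocyte, 2 higher and 1 lower mast cell, and 1 higher and 0 lower erythroid genes. The libraries of the circulating group thus differed among themselves in which lineage genes were high.

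**Figure D5:**
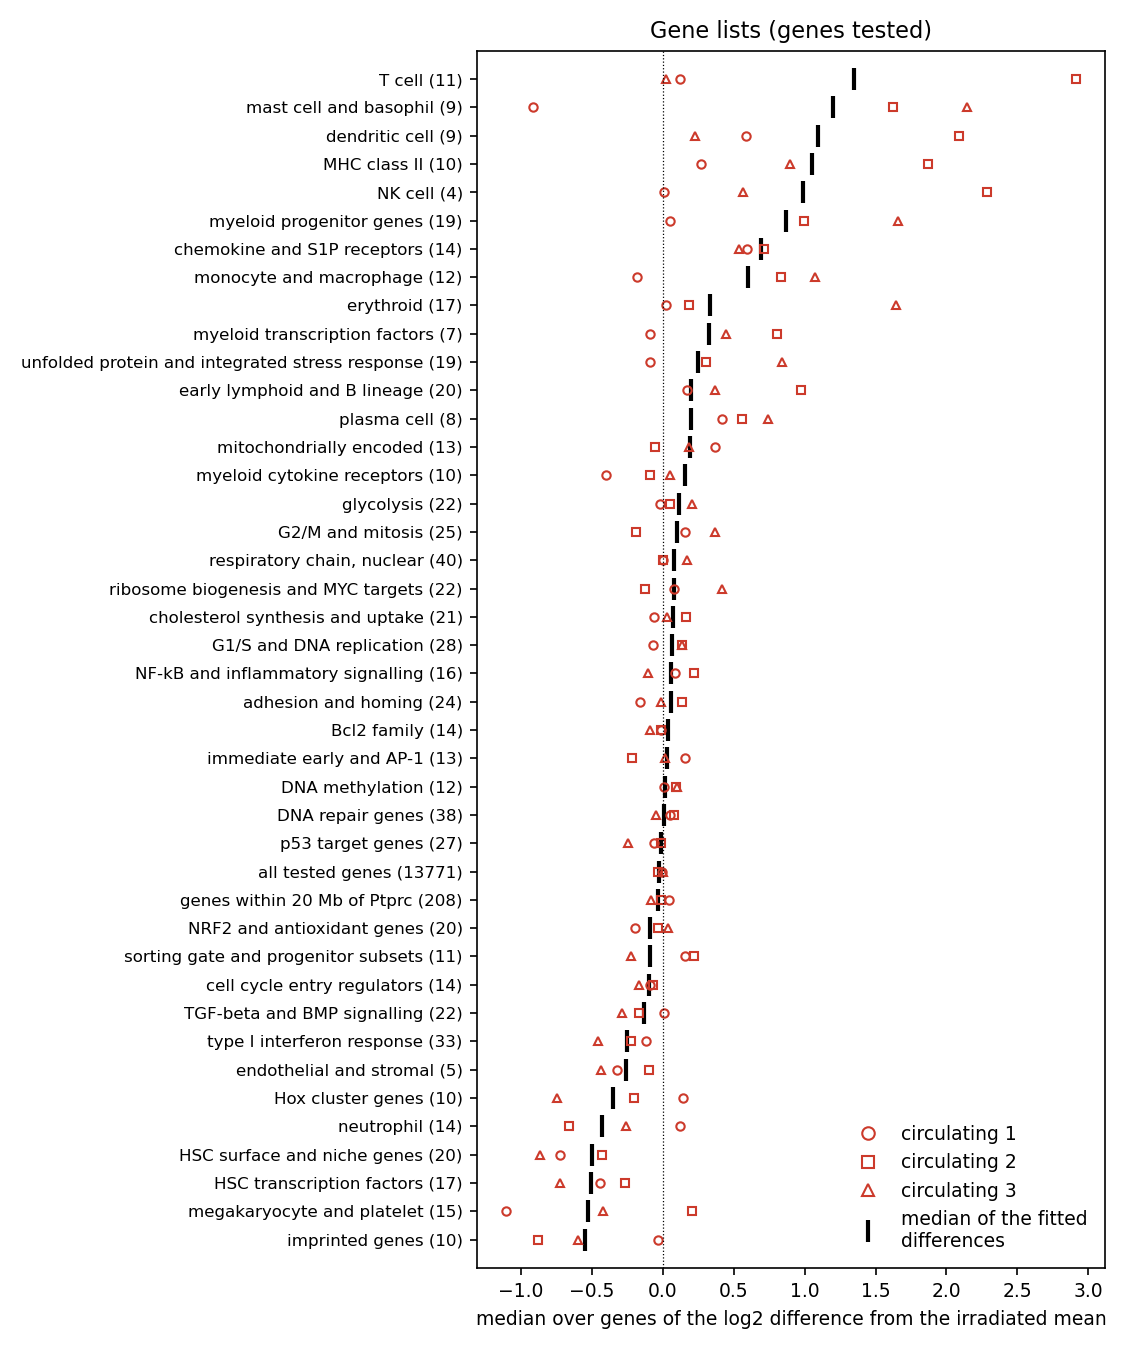
Median over the genes of each list of the log2 difference from the irradiated mean (x axis) for the lists (y axis, number of tested genes in brackets) in each circulating replicate (red symbols), with the median of the fitted differences as a black bar. The replicates lie together for the stem cell and chemokine receptor lists and far apart for the T cell, mast cell and erythroid lists.

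Type I interferon response genes were lower on balance. Of 33 tested genes, 27 had a negative difference, with a median of -0.25, and none was called. At an unadjusted p under 0.05 there were 6 lower members and no higher ones. In 11 of the 33 (33.3%, against 9.26% of all genes) the circulating values lay below all irradiated ones, and in none above. The medians by circulating replicate were -0.12, -0.22 and -0.46. Interferon acts through a complex of transcription factors that binds repeated GAAA elements in the promoters of these genes. Stretches of 70 bases from 4 of the lower genes are shown because they hold that element before the start of transcription. They are from RefSeq on GRCm38.p6, 5′ to 3′ on the strand of the gene, and capitals mark matches to GAAANNGAAA or its reverse complement TTTCNNTTTC, overlapping matches included.
Isg15: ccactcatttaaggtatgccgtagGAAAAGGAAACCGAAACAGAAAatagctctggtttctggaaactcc
Oas3: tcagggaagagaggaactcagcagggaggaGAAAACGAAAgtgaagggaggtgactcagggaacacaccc
Rsad2: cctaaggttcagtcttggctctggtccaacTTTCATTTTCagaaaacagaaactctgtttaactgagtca
Ifit1: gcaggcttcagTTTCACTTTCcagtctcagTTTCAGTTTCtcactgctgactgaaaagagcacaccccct
The stretches lie at chr4:156200851-156200920 (minus strand), chr5:120777695-120777764 (minus), chr12:26456533-26456602 (minus) and chr19:34640774-34640843 (plus). Searched on both strands from 250 bases before to 50 bases after the start, the element was present in 14 of the 23 tested interferon genes that matched the promoter table (60.9%). It was in 7 of the 8 matched genes with lower values and no overlap (87.5%), in 399 of 9915 tested genes with a promoter (4.02%) and in 3.44% of all 32851 promoters. A match describes the sequence and does not show that a factor was bound. Interferon response genes carry this element as a class, so its share describes the list and not the difference between the groups. The 8 lower genes were selected by these same values, and a link of the element to lower values was not tested.

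Isg15, a ubiquitin-like modifier, stood at 4.81, 4.06 and 3.14 in circulating and 9.06, 8.52 and 7.56 in irradiated cells, with endogenous values of 11.1, 12.7 and 13.9, in steps without overlap (difference -0.92, adjusted p = 0.322). Oas3, a sensor that activates RNase L, stood at 7.28, 2.52 and 4.91 against 14.7, 9.76 and 11.3 (difference -1.20, adjusted p = 0.323). Rsad2 (viperin), an antiviral enzyme, stood at 15.7, 4.61 and 9.55 against 21.8, 17.1 and 16.3 (difference -0.95, adjusted p = 0.373). All circulating values of these genes were below all irradiated ones. Ifit1, which binds foreign RNA, stood at 10.7, 8.61 and 9.03 against 11.9, 17.9 and 13.4 (difference -0.54, adjusted p = 0.469), while endogenous cells were at 44.1, 30.9 and 31.7, above both groups. Ifih1 (MDA5), a sensor of double-stranded RNA, had 20.6, 9.83 and 16.1 against 31.1, 42.3 and 27.3 (difference -1.10, adjusted p = 0.25). Irf7, a factor that amplifies the response, differed by -0.08 (adjusted p = 0.953), with overlap. The median of 16 NF-kB and inflammatory genes was 0.06, and none was called or at an unadjusted p under 0.05.

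Cell division genes had medians near 0. The 28 genes of the G1/S transition and DNA replication had a median of 0.07 and the 25 genes of G2/M and mitosis a median of 0.10, and none was called. At an unadjusted p under 0.05 there were 4 higher G1/S and 2 higher G2/M genes, and no lower ones. Cdc45, a part of the replicative helicase, stood at 113, 128 and 153 against 110.0, 84.9 and 87.3 (difference 0.47, adjusted p = 0.331), the circulating libraries all above the irradiated ones. In 5 of the 28 G1/S genes the circulating values lay above all irradiated ones (17.9%, against 7.46%), and in none of the G2/M genes. The G2/M medians by circulating replicate differed in sign, at 0.16, -0.185 and 0.37. Without circulating replicate 2 the G2/M median was 0.24, with 24 of 25 genes positive. Then 11 were higher without overlap (44%, against 14% of all genes). Without circulating replicate 3 the G2/M median was -0.01, and none was without overlap. Mki67, the proliferation marker Ki-67, was at 396, 280.0 and 391 against 366, 344 and 353 and differed by -0.01 (95% confidence interval -0.32 to 0.30, adjusted p = 0.986). The 14 regulators of cell cycle entry had a median of -0.10, and Cdk4, the kinase partner of D cyclins, differed by -0.19 (adjusted p = 0.455). Cdkn1c (p57), an inhibitor linked to stem cell quiescence, was at most 2.51 in both groups.

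Genes of the response to DNA damage had medians of 0.01 over 38 repair genes and -0.01 over 27 targets of p53. None was called, and at an unadjusted p under 0.05 there were 0 higher and 1 lower repair genes and 1 higher and 3 lower p53 targets. Cdkn1a (p21), the classical p53 target, stood at 12.2, 15.9 and 10.7 in circulating and 11.3, 14 and 13.3 in irradiated cells, a difference of -0.01 (95% confidence interval -0.83 to 0.82). Mdm2, the p53 ubiquitin ligase, stood at 92.4, 106 and 56.8 against 83.1, 89.3 and 93.5 (difference -0.11, adjusted p = 0.881). Neither gene separated the groups. Lig4, the ligase of non-homologous end joining, was the repair gene at an unadjusted p under 0.05. It stood at 1.33, 0.0376 and 1.39 in circulating and 6.45, 6.04 and 6.29 in irradiated cells, with endogenous values of 0.564, 0.639 and 1.02. Its difference of -2.02 missed the threshold (adjusted p = 0.0968) and passed without circulating replicate 1 (difference -2.21, adjusted p = 0.0424). Phlda3, a p53 target that restrains AKT, was lower without overlap, at 0.429, 0.488 and 1.9 against 2.81, 6.66 and 2.48 (adjusted p = 0.297). These values are low, and Phlda3 lies within 20 Mb of Ptprc, where the limit on strain given above applies. The 14 genes of the Bcl2 family had a median of 0.04, with Bok, a pro-apoptotic member, at 3.1, 6.87 and 2.35 against 8.65, 14.8 and 11.6 (adjusted p = 0.292).

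Among 13 immediate early genes (median 0.03), Dusp1, a phosphatase that ends MAP kinase signalling, was lower without overlap. It stood at 7.53, 10.6 and 5.39 in circulating and 18.1, 30 and 27.7 in irradiated cells, with endogenous values of 21.7, 21.1 and 21 (difference -1.58, adjusted p = 0.0968). Fos, by contrast, was at 39.8, 22.3 and 33.5 against 27.5, 23.2 and 18.3, and its groups overlapped. These genes respond to handling within minutes, so the levels are those of sorted cells.

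The 40 nuclear genes of the respiratory chain had a median of 0.08, with 33 positive. Their medians by circulating replicate were 0.005, 0.0003 and 0.17. Without circulating replicate 3 their median was -0.004, with 19 positive and 21 negative. The 13 mitochondrially encoded genes had a median of 0.19, with 4 of 13 higher without overlap (30.8%, against 7.46% of all genes). By circulating replicate it was 0.37, -0.05 and 0.19, and without circulating replicate 1 it was 0.03. Among these 13, mt-Nd4, a subunit of complex I, differed by 0.40 (adjusted p = 0.374). The 22 glycolysis genes had a median of 0.11, the 22 genes of ribosome biogenesis one of 0.08, the 20 antioxidant genes one of -0.09. None of these was called, and at an unadjusted p under 0.05 there were 2 higher and 1 lower glycolysis genes, 1 higher and 1 lower ribosome biogenesis genes, and no antioxidant genes. Of 19 genes of the unfolded protein response, 16 were positive, with a median of 0.25 and medians by replicate of -0.09, 0.30 and 0.84. None was called, 5 were higher and 1 lower at an unadjusted p under 0.05 in limma, and the median was 0.58 with the first circulating library left out. Hspa5 (BiP), the main chaperone of the endoplasmic reticulum, stood at 987, 1269 and 2019.7 against 907, 769.6 and 1040.3 (difference 0.60, adjusted p = 0.349), highest in circulating replicate 3. Over the 21 genes of cholesterol synthesis and uptake the median was 0.07, and Dhcr7, a late enzyme of the pathway, was -0.86 (adjusted p = 0.199).

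Imprinted growth-restraining genes, which are expressed from 1 parental copy and are typical of quiescent stem cells, had a median of -0.55 over 10 tested genes. In 5 of the 10 (50%, against 9.26%) the circulating values lay below all irradiated ones, and none was called (0 higher and 4 lower at an unadjusted p under 0.05). Ndn, necdin, stood at 3.05, 0.113 and 2.24 in circulating and 4.78, 6.08 and 7.07 in irradiated cells, with endogenous values of 26.8, 25.8 and 18.1 (difference -1.50, adjusted p = 0.304), so the groups stood in steps without overlap. Grb10, an adaptor that dampens growth factor signals, stood at 1.74, 8.0 and 5.75 against 12.1, 11 and 11.1 (difference -1.17, adjusted p = 0.349). Replicate medians were -0.03, -0.88 and -0.60, with circulating replicate 1 near the irradiated mean.

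The 10 tested Hox genes had a median of -0.35, and Hoxa7 was called without circulating replicate 1 (difference -1.47, adjusted p = 0.0488). Of 22 genes of TGF-beta and BMP signalling (median -0.14), Eng (endoglin), a coreceptor on stem cells, stood at 15.8, 22.5 and 14.7 against 38.6, 38.6 and 43.5 (difference -1.16, adjusted p = 0.159). Tgfb1, the ligand, stood at 18.3, 37.2 and 26.7 against 47.2, 58.8 and 63.3 (adjusted p = 0.276). Both were lower in every circulating than in every irradiated library, the only 2 of the 22 (9.09%, against 9.26% of all genes). The list had 10 positive and 12 negative differences. The 12 writers and erasers of DNA methylation had a median of 0.02. Uhrf1, which maintains methylation at replication, was 0.49 (adjusted p = 0.297), Tet2 0.47 (adjusted p = 0.376) and Tet3 -0.48 (adjusted p = 0.423), all without overlap between the groups. In the list, 3 genes were higher (25%) and 1 lower (8.33%) without overlap, beside shares over all genes of 7.46% and 9.26%.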

How the data were processed

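Per the labels, RNA of sorted bone marrow LSK cells was extracted with the Pico Pure kit, amplified with SMART-Seq v4 and made into Nextera XT libraries, which do not keep strand. RSEM 1.3.1, CASAVA, limma and the build mm10 are listed, per the submitters' processing notes, without roles. The aligner, annotation and scaling are not given in these sources. The authors deposited 1 table of a normalised signal, not raw counts: in all libraries every value was an estimated count of 2 decimals plus 0.5, times a constant per library (tolerance 0.001). No count test was therefore the main test. Gene names were matched for 14405 of 14461 identifiers, and 56 had none. Values were analysed as log2(value + 1) with limma 3.58.1 (R 4.3.3; trend and robust moderation, all 9 libraries in 1 fit, Benjamini-Hochberg adjustment over 13771 genes, threshold 0.05). The script was tested on simulated data. With 3 libraries against 3, an exact permutation test of 1 gene cannot go below 0.1, so none was run. Groups were taken from the source names.

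Named genes were those called, then the next by unadjusted p up to 15 in each direction (average log2 of at least 2, no overlap), up to 4 members of each list by smallest p, and 9 fixed genes. Other members stand as examples chosen after their values were seen. The members and the 40 gene lists were chosen with earlier results of these data known. The 20 alternatives covered pseudocounts, filters, scaling, moderation, weights, voom on the recovered estimated counts, a replicate block and leaving out each library. A few genes are counted within their lists but are not reported here by name.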

Additional observations from a re-analysis of the deposited data

How the results depend on the processing

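Ctse and Dynlt1b were called under all 20 alternatives, with differences of 3.14 to 3.5 and 3.03 to 3.31. Cxcr4 was called under 19, with 2.30 to 2.65. Adgrg1 was called under 12, with -1.06 to -0.84 and adjusted p from 0.0154 to 0.256. None of these 4 genes turned its direction. List medians, which carry no test, did in places. Without circulating replicate 2 that of myeloid cytokine receptors went from 0.15 to -0.09. Without circulating replicate 3 that of erythroid genes went from 0.33 to -0.03 and that of G2/M genes from 0.10 to -0.01. With the same library left out, that of nuclear respiratory chain genes went from 0.08 to -0.004. Without irradiated replicate 3 that of early lymphoid and B lineage genes went from 0.20 to -0.07. The count of 4 called genes, 3 higher and 1 lower, became 13 with 9 lower when a value of at least 5 was required, 11 with 8 lower after rescaling to the same sum, and 8 with 5 lower by voom. Without robust moderation no gene was called lower. The cause of these changes was not tested. Leaving out 1 library at a time gave 3 to 137 called genes, 3 to 70 of them higher and 0 to 67 lower, with the most calls without circulating replicate 1. Groups then did not overlap in 1028 to 2261 higher and 1275 to 2528 lower genes, where fewer libraries make overlap rarer. With a replicate block on the 6 libraries, 2 genes were called, 2 higher and 0 lower, and Cxcr4 had an adjusted p of 0.106 and Adgrg1 one of 0.147. Same-numbered libraries deviated together with r of 0.0501, 0.0311 and 0.1818, not all above 0.1, so the shared codes in the titles were not taken as a pairing. The labels do not say what the codes stand for, and these correlations cannot show that same-numbered libraries are independent. Circulating replicate 2 was the shallowest.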
